A study of Pan troglodytes and Macaca mulatta with 12 samples.

Results

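The genes described here were listed as plasma cell regulators, ER (endoplasmic reticulum) chaperones, parts of the protein translocon and signal peptidase, and genes of the unfolded protein response. The list holds 45 human Ensembl gene identifiers, of which 41 occur in the deposited exon count files, among 16903 genes in all, and 40 had enough counts to be tested, among 9440. It was drawn up to include PRDM1, XBP1, IRF4, MZB1, CD38, SLAMF7 and ELL2, but the files and the reference tables used here pair 0 of the identifiers with a symbol. Genes are therefore named by identifier and position, and none is given an individual role. The 4 listed identifiers that no file holds are ENSG00000099958, ENSG00000167004, ENSG00000106803 and ENSG00000118363.

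As background, a plasma cell is the end stage of the B cell lineage and secretes large amounts of antibody. PRDM1, XBP1 and IRF4 encode transcription factors that direct this stage: PRDM1 shuts down genes of earlier B cells, and XBP1 enlarges the secretory apparatus. New secretory proteins enter the endoplasmic reticulum through the translocon, lose their signal peptide to signal peptidase and fold with the help of chaperones and disulfide isomerases. When unfolded protein accumulates there, sensors in the membrane start the unfolded protein response, which raises chaperones and the machinery that removes misfolded chains. Lymphoblastoid lines are cultured, immortalised B lymphocytes and resemble activated B cells that can take on parts of this programme.

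RNA was sequenced from lymphoblastoid lines of 6 chimpanzees, of which 3 were female, and 6 rhesus macaques, of which 2 were female, with 1 library for each individual. All lines were grown in the same serum-supplemented medium with no treatment named in the labels, and ages were not used here. Human lines that the series design also names were not analysed here. Replicates were numbered in the order of deposit, which carries no pairing. Library totals ran from 1434241 to 4751954 counts, and the listed genes took between 0.979% and 2.25% of a library. The first principal component of all tested genes carried 63.5% of the variance. Chimpanzee replicate 1 and rhesus macaque replicates 5 and 6 stood apart from their groups on chromosome 19, whose genes deviated from the species mean by medians of -0.66, -0.24 and -0.25 on the log2 scale. In ENSG00000100219, a listed gene with 5 counted exons, the exon numbered 5 took 3.78% of the gene's counts in chimpanzee replicate 1 and between 9.20% and 13.6% in the other chimpanzee libraries. It took 7.28% and 11.5% in rhesus macaque replicates 5 and 6 and between 21.3% and 23.5% in the other macaque libraries. This is 1 exon of 1 listed gene, given as an example only. The lineage of the lines could not be checked against B cell markers, since marker lists need symbols.

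Most of the listed genes were well expressed in both species. Levels between genes are compared as RPKM, reads per kilobase of counted exon and per 1e6 counts. The median level of the 40 tested genes was 159 RPKM in chimpanzee and 123 RPKM in rhesus macaque, against 27.1 and 25.6 RPKM over all tested genes. Of the 40, 37 lay above the median of all tested genes in chimpanzee and 34 in rhesus macaque. The highest mean in both species was that of ENSG00000179218 (chromosome 19 from 12910423 to 12915443), at 1808 RPKM in chimpanzee and 1541 RPKM in rhesus macaque. Second in both species was ENSG00000185624 (chromosome 17 from 77394323 to 77411833), at 697 RPKM in chimpanzee and 1204 RPKM in rhesus macaque. The lowest of the tested genes was ENSG00000178607 (chromosome 17 from 59474122 to 59529333), at 11.8 RPKM in chimpanzee and 5.4 RPKM in rhesus macaque. One gene that occurs in the files failed the expression filter, ENSG00000115884 (chromosome 2 from 20268585 to 20288408), with 5 counts over all chimpanzee libraries and 5 over all rhesus macaque libraries. Low levels of that size cannot be compared between the species at this depth.

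**Figure D1:**
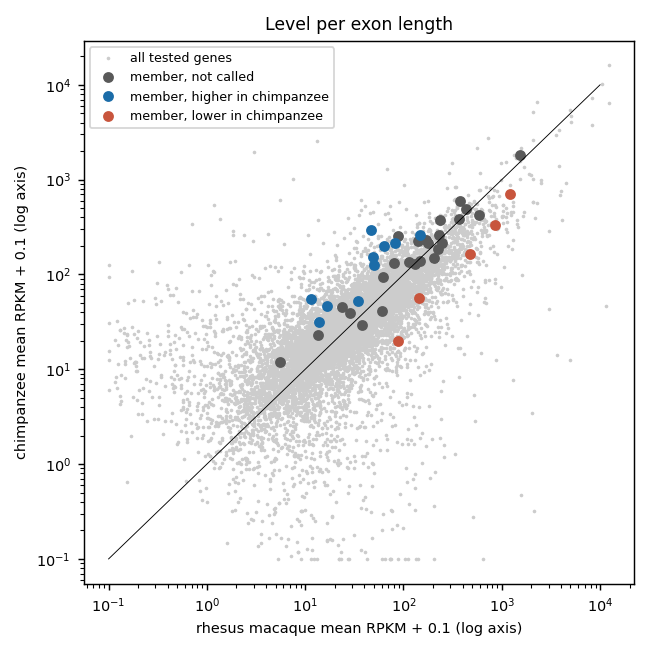
Mean level per exon length (RPKM plus 0.1, both axes logarithmic) of all 9440 tested genes (grey) and the 40 listed genes (coloured by the outcome of the species test), with rhesus macaque on the x axis, chimpanzee on the y axis and a line where both are equal. The listed genes sit towards the upper end of both axes, with medians of 159 and 123 RPKM.

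The first comparison asked which of these genes differ in level between chimpanzee and rhesus macaque lines. Of the 40 tested, 10 passed as higher in chimpanzee and 5 as lower (edgeR quasi-likelihood test, p adjusted over all 9440 genes, threshold 0.05). Together these are 37.5%, against 48.2% of all tested genes, of which 24.7% were higher and 23.5% lower. The separate test for a size beyond 2-fold was passed by 3 higher genes (background 8.74%) and 1 lower gene (background 8.51%), 10% of the 40 against 17.2% of all genes. The 6 values of each species did not overlap in 5 genes that were higher and 2 that were lower, 17.5% of the 40 against 27.1% of all genes (13.3% higher and 13.8% lower). All 3 shares were thus below those over all genes, and no test of that difference was made. The median log2 fold change (chimpanzee over rhesus macaque) was 0.45 over the 40 genes and 0.04 over all genes, and the median size without sign was 0.68 and 0.71. Chimpanzee replicates 2 and 5 and the 3 libraries that stood apart changed these figures when left out. Without chimpanzee replicates 2 and 5, 7 genes were higher, 8 lower and 6 beyond 2-fold, and the median log2 fold change of the 40 genes was 0.04. Without chimpanzee replicate 1 and rhesus macaque replicates 5 and 6, 14 were higher, 3 lower and 7 beyond 2-fold, with a median of 0.67. Of all genes, 47.7% were called in the former fit and 49.2% in the latter, and the share beyond 2-fold over all genes was not counted there. The calls of ENSG00000004468, ENSG00000026751 and ENSG00000185624 were lost in the latter fit (edgeR adjusted p = 0.0902, 0.0507 and 0.119) at log2 fold changes of -1.51, 1.98 and -0.67, while ENSG00000124783, ENSG00000137265, ENSG00000170476, ENSG00000178607 and ENSG00000182158 passed in it. Those of ENSG00000026751, ENSG00000118217 and ENSG00000127022 were lost without chimpanzee replicates 2 and 5, at log2 fold changes of 0.63, 0.53 and 0.75 (edgeR adjusted p = 0.389, 0.0877 and 0.0624), and ENSG00000057657, ENSG00000129128 and ENSG00000163479 passed there. In these bulk libraries, fewer cells that express a gene and less RNA per cell cannot be told apart. Both species were counted on exons of the same names and coordinates, and the sources used here do not describe the mapping. A species difference in RNA level therefore cannot be told apart from one in how well reads map to these exons.

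**Figure D2:**
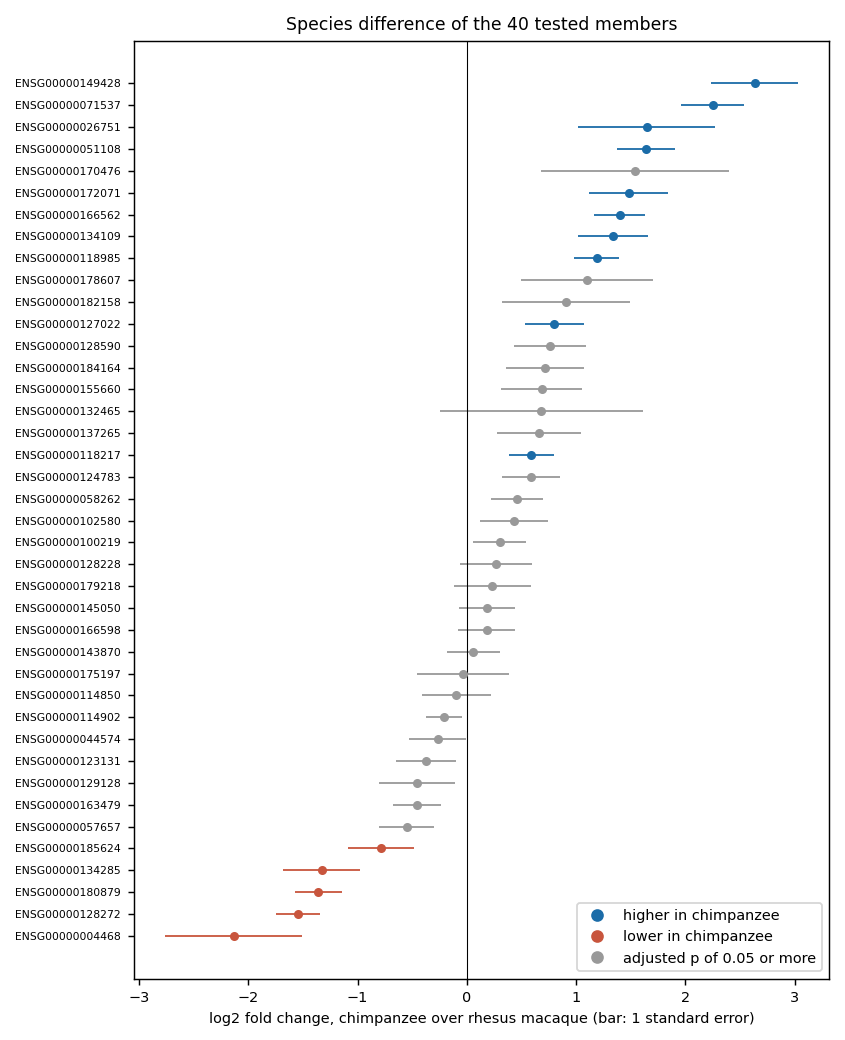
Log2 fold change of chimpanzee over rhesus macaque for each of the 40 tested genes, ordered by size, with bars of 1 standard error. Blue points are the 10 genes higher in chimpanzee, red points the 5 lower, and grey points the 25 that did not pass; values run from -2.13 to 2.63.

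The largest difference towards chimpanzee was in ENSG00000149428, which has 23 counted exons on chromosome 11 from 118421703 to 118433122. Its chimpanzee libraries, replicates 1 to 6, stood at 672, 806, 787, 769, 1533 and 289 CPM (counts scaled to a common library size by TMM), and its macaque libraries at 56.1, 148, 116, 80.8, 235 and 145 CPM. The lowest chimpanzee library, replicate 6, lay above the highest rhesus macaque library, replicate 5, and chimpanzee replicate 5 was the highest of all. The means were 809 ± 404 CPM among chimpanzees and 130.2 ± 62.6 CPM among macaques (SD over 6 libraries each), a log2 fold change of 2.63 ± 0.39 (SE, edgeR adjusted p = 0.00011). It also passed the test for a difference beyond 2-fold (edgeR glmTreat adjusted p = 0.0012), and all 22 of its well-counted exons were higher in chimpanzee.

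ENSG00000071537, with 21 counted exons on chromosome 14 from 81007646 to 81069886, held 607, 387, 497, 381, 467 and 241 CPM in chimpanzee replicates 1 to 6 and 65.9, 84.4, 49.9, 70.8, 119.7 and 149.7 CPM in macaque replicates 1 to 6. The groups did not overlap, and chimpanzee replicate 6 was again the lowest of its species. The mean was 429.9 ± 124 CPM among chimpanzees and 90.1 ± 37.5 CPM among macaques (SD over 6 libraries each), a log2 fold change of 2.25 ± 0.29 (SE, edgeR adjusted p = 2.89e-05), beyond 2-fold by its own test (edgeR glmTreat adjusted p = 0.000688). All 20 well-counted exons went the same way.

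ENSG00000051108, on chromosome 16 from 55523249 to 55535294, was the third gene higher by more than 2-fold (edgeR glmTreat adjusted p = 0.0217). It stood at 326, 451, 557, 427, 442 and 284 CPM in chimpanzee replicates 1 to 6 and at 118, 196, 115, 58.2, 149 and 163 CPM in macaque replicates 1 to 6, with rhesus macaque replicate 4 far below its own group. The means were 415 ± 97.3 CPM among chimpanzees and 133 ± 47.4 CPM among macaques (SD over 6 libraries each), a log2 fold change of 1.64 ± 0.26 (SE, edgeR adjusted p = 0.000186).

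Another pair of genes separated the species fully towards chimpanzee, though neither passed the test beyond 2-fold. ENSG00000166562, on chromosome 18 from 54967725 to 54977041, held 144, 119, 116, 112, 111 and 64 CPM in chimpanzee and 46.4, 29.6, 62.8, 36.2, 34.9 and 42.6 CPM in macaque replicates 1 to 6. Only a narrow gap lay between chimpanzee replicate 6 and rhesus macaque replicate 3, and the log2 fold change was 1.40 ± 0.23 (SE, edgeR adjusted p = 0.000233). ENSG00000118985, on chromosome 5 from 95246560 to 95323531, held 153, 128, 126, 147, 155 and 133 CPM in chimpanzee and 44.5, 44.9, 58.8, 70.8, 52.3 and 95.8 CPM in macaque. Its chimpanzee values were the closest together of all 40 genes, at a log2 SD of 0.13, and it had a log2 fold change of 1.19 ± 0.21 (SE, edgeR adjusted p = 0.000324). Without its strongest exon, which is 3888 bases long and holds 80.2% of its counts in chimpanzee, the log2 fold change was 0.72 and the call was lost (edgeR adjusted p = 0.113).

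Among the genes higher in chimpanzee with overlapping groups, ENSG00000134109 on chromosome 3 from 5211894 to 5236642 held 1122, 548, 913, 563, 456 and 569.7 CPM in chimpanzee and 211, 253, 149, 172, 394 and 473 CPM in macaque replicates 1 to 6. Chimpanzee replicate 5 fell below rhesus macaque replicate 6, and the log2 fold change was 1.34 ± 0.32 (SE, edgeR adjusted p = 0.00323). ENSG00000172071, on chromosome 2 from 88637376 to 88708209, held 115, 396, 181, 147, 305 and 157 CPM in chimpanzee and 44.5, 69.6, 40.9, 63, 118 and 129 CPM in macaque. Chimpanzee replicates 2 and 5 were its highest libraries, while replicate 1 lay below rhesus macaque replicates 5 and 6. Its log2 fold change was 1.48 ± 0.36 (SE, edgeR adjusted p = 0.00413). Without chimpanzee replicates 2 and 5 it was 0.93 (edgeR adjusted p = 0.0349), and without chimpanzee replicate 1 and rhesus macaque replicates 5 and 6 it was 2.11.

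The remaining 3 calls towards chimpanzee lay close to the threshold. ENSG00000127022, on chromosome 5 from 179058536 to 179091243, stood at 1914, 1066, 1180.02, 1146, 1576 and 799 CPM in chimpanzee and 506, 719, 467, 565, 1064 and 1091 CPM in macaque, with chimpanzee replicates 2 and 6 inside the macaque range and a log2 fold change of 0.80 ± 0.27 (SE, edgeR adjusted p = 0.0247). Its call was lost without any one of chimpanzee replicates 1 and 5 and rhesus macaque replicates 1 to 4 (edgeR adjusted p from 0.0525 to 0.0630), with log2 fold changes of 0.64 to 0.76 in these fits. ENSG00000118217, on chromosome 1 from 160002708 to 160195476, stood at 157, 123, 134, 102, 134 and 79.3 CPM in chimpanzee and 66.5, 81.5, 58.3, 77.3, 101 and 98.4 CPM in macaque, and the groups overlapped through chimpanzee replicate 6. Its log2 fold change was 0.59 ± 0.21 (SE, edgeR adjusted p = 0.0279), and leaving out any one of chimpanzee replicates 1, 3 and 5 and rhesus macaque replicates 1 to 4 lost the call (edgeR adjusted p from 0.0543 to 0.0619) at log2 fold changes of 0.50 to 0.57. ENSG00000026751, on chromosome 1 from 158975701 to 158987862, held 18.1, 178, 96.8, 18.5, 173 and 39.6 CPM in chimpanzee and 6.71, 55.3, 27.4, 12.3, 26.2 and 38.9 CPM in macaque. In chimpanzee it was high in replicates 2, 3 and 5 and within the rhesus macaque range in the others. Its log2 fold change was 1.65 ± 0.63 (SE, edgeR adjusted p = 0.0432), and the call was lost without any one of chimpanzee replicates 2, 3 and 5 and rhesus macaque replicates 1, 3, 4, 5 and 6 (edgeR adjusted p from 0.0514 to 0.106). Its log2 fold change in those fits was 1.32 to 1.76, lowest without chimpanzee replicate 2 and highest without rhesus macaque replicate 6. Without chimpanzee replicates 2 and 5 together the log2 fold change was 0.63 (edgeR adjusted p = 0.389).

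In the other direction, 5 genes were lower in chimpanzee. ENSG00000128272, on chromosome 22 from 38245646 to 38247622, held 252, 267, 303, 309, 266 and 178 CPM in chimpanzee replicates 1 to 6 and 804, 1108, 694, 529, 659 and 790.1 CPM in macaque replicates 1 to 6. The groups were far apart, and this was the only listed gene lower by more than 2-fold under the test for that size (edgeR glmTreat adjusted p = 0.0132). The means were 262 ± 47.1 CPM among chimpanzees and 764 ± 196 CPM among macaques (SD over 6 libraries each), a log2 fold change of -1.54 ± 0.20 (SE, edgeR adjusted p = 3.24e-05). The value rests on 1 exon of 1493 bases, which accounted for 99.9% of the gene's counts among chimpanzees and 99.95% among macaques.

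ENSG00000180879, one of 2 listed genes on chromosome X, lies from 152713288 to 152716785. It held 86.5, 151, 149.8, 159, 232 and 145 CPM in chimpanzee and 406, 456, 463, 413, 354 and 278 CPM in macaque replicates 1 to 6, again without overlap and with all 5 exons lower in chimpanzee. The mean was 154 ± 46.3 CPM among chimpanzees and 395 ± 69.4 CPM among macaques (SD over 6 libraries each), a log2 fold change of -1.36 ± 0.22 (SE, edgeR adjusted p = 0.000172). The test beyond 2-fold was not passed (edgeR glmTreat adjusted p = 0.0849).

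ENSG00000004468, on chromosome 4 from 15389029 to 15459806, had the largest difference towards rhesus macaque and a wide spread. It held 10.5, 50.9, 19.1, 4.24, 82.3 and 10.6 CPM in chimpanzee and 56.1, 104, 124, 91.2, 121 and 283 CPM in macaque. Chimpanzee replicate 5 lay above rhesus macaque replicate 1, and the other chimpanzee libraries lay below every rhesus macaque library. All 8 exons were lower in chimpanzee. It had a log2 fold change of -2.13 ± 0.62 (SE, edgeR adjusted p = 0.012). Without chimpanzee replicates 2 and 5 the log2 fold change was -3.56, and without chimpanzee replicate 1 and rhesus macaque replicates 5 and 6 it was -1.51 and did not pass (edgeR adjusted p = 0.0902).

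ENSG00000134285, on chromosome 12 from 47602019 to 47605555, held 9.77, 32.4, 28.1, 31.2, 79.5 and 45.7 CPM in chimpanzee and 70.8, 92.3, 100.2, 93.7, 109 and 107 CPM in macaque replicates 1 to 6. Only chimpanzee replicate 5 reached the rhesus macaque range, and the log2 fold change was -1.33 ± 0.35 (SE, edgeR adjusted p = 0.00625). ENSG00000185624, on chromosome 17 from 77394323 to 77411833, held 837, 1668, 1473, 1181, 3530.01 and 1129 CPM in chimpanzee and 3254, 3036, 2012, 3094, 2929 and 2633 CPM in macaque. Chimpanzee replicate 5 was the highest of all 12 libraries, whereas the other 5 chimpanzee libraries lay below every rhesus macaque library. Its log2 fold change was -0.79 ± 0.30 (SE, edgeR adjusted p = 0.0429). Leaving out chimpanzee replicate 5 raised the size of the difference to -1.17 (edgeR adjusted p = 0.000652), and leaving out any one of the other chimpanzee libraries or rhesus macaque replicates 1, 2, 4, 5 and 6 lost the call (edgeR adjusted p from 0.0539 to 0.0951) at log2 fold changes of -0.65 to -0.82. It was also lost when library totals were used without TMM scaling (edgeR adjusted p = 0.0632) and without the strongest exon (edgeR adjusted p = 0.204).

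**Figure D3:**
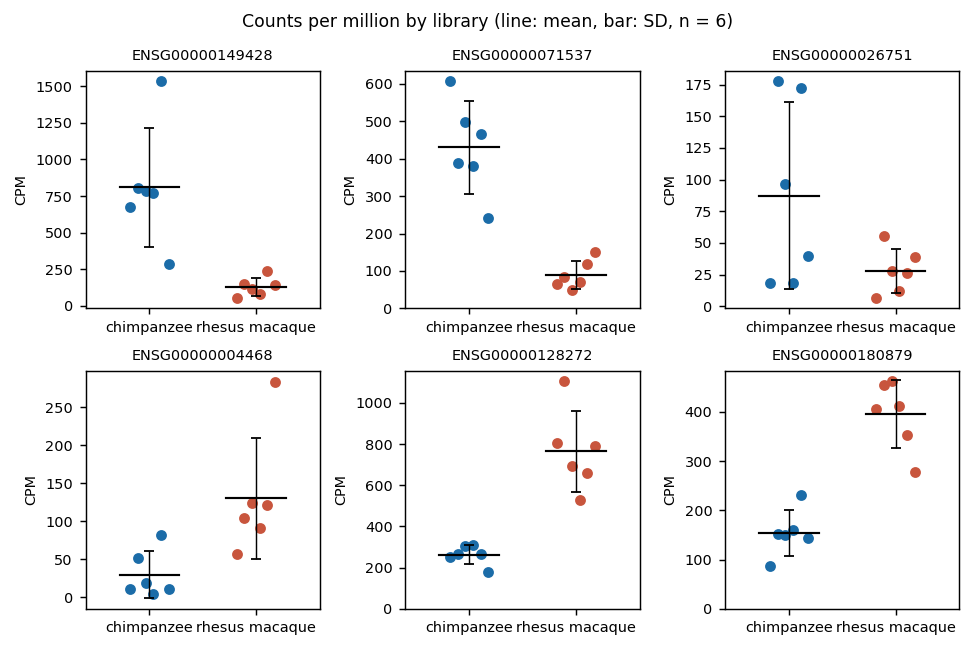
CPM of each library for the 3 genes with the largest called differences towards chimpanzee (top row) and towards rhesus macaque (bottom row); points are libraries, black lines means and bars the SD over 6 libraries. ENSG00000149428, ENSG00000071537, ENSG00000128272 and ENSG00000180879 show groups that do not overlap, while ENSG00000026751 and ENSG00000004468 overlap.

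For 25 of the 40 genes the species difference did not pass, 17 with values above 0 and 8 below, and their log2 fold changes ran from -0.55 to 1.54. Closest to the threshold were ENSG00000128590, at 0.76 ± 0.33 (SE, edgeR adjusted p = 0.0681) for the log2 fold change, ENSG00000124783, at 0.59 ± 0.27 (SE, edgeR adjusted p = 0.0814), and ENSG00000057657, at -0.55 ± 0.25 (SE, edgeR adjusted p = 0.0854). Several abundant genes had small estimated differences. ENSG00000179218, the highest of the list per length, held 799, 2632, 1567, 1493, 3848 and 820.4 CPM in chimpanzee and 1254, 2176, 1858, 1308, 1628 and 1289 CPM in macaque replicates 1 to 6, and the chimpanzee libraries reached both below and above the whole rhesus macaque range. Its log2 fold change was 0.23 ± 0.35 (SE, edgeR adjusted p = 0.614). The gene lies on chromosome 19, where chimpanzee replicate 1, its lowest library, deviated by a median of -0.66. Chimpanzee replicate 6, at 820.4 CPM, was nearly as low without such a shift, at 0.18. The part of the chromosome 19 shift in this gene was not tested. ENSG00000044574, which has a single counted exon on chromosome 9 from 127036955 to 127039254, stood at 278, 469, 536, 369.9, 642 and 254 CPM in chimpanzee and 396, 749, 554, 372, 613 and 377 CPM in macaque, a log2 fold change of -0.27 ± 0.26 (SE, edgeR adjusted p = 0.424). ENSG00000143870 stood at 0.06 ± 0.24 (SE, edgeR adjusted p = 0.857), ENSG00000166598 at 0.18 ± 0.26 (SE, edgeR adjusted p = 0.589) and ENSG00000145050 at 0.19 ± 0.26 (SE, edgeR adjusted p = 0.578). The exon numbered 1 of ENSG00000175197, whose log2 fold change was -0.04 ± 0.42 (SE, edgeR adjusted p = 0.949), overlaps an exon of another gene, so that counts there may belong to either gene.

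In called genes with several exons, the exons mostly went with the gene, and the matching share over all called genes was not counted. In 10 of the 11 called genes with at least 5 well-counted exons (at least 10 counts over all libraries), every such exon had the sign of the gene, and over these 11 genes 131 of 133 exons did. Gene levels are sums over these very exons, so this is a description of how evenly the difference was spread and no separate support for it. The listed genes are spread over 18 chromosomes of the files' coordinates, with at most 5 on 1 chromosome and the closest pair 1.01 Mb apart. Of the 15 called genes, 7 (46.7%) had an adjacent tested gene called in the same direction, against 52.5% of all called genes.

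With all libraries, the median spread between individuals of 1 species was larger over these genes than over all tested genes. The median SD of log2 CPM over the 40 genes was 0.58 in chimpanzee and 0.56 in rhesus macaque (n = 6 each), against 0.48 and 0.45 over all tested genes. It fell to 0.49 without chimpanzee replicate 5 and to 0.42 without rhesus macaque replicate 4. The SD over all genes was not computed without these libraries. In chimpanzee, replicates 2 and 5 were high across much of the list. They held the highest 2 values of the species in 21 genes, 52.5% of the 40, against 15.9% of all tested genes. This pair, like the other pairs of high or low libraries below, was picked after the data were seen, which favours the list in such counts. The list took 1.87% and 2.25% of the counts in chimpanzee replicates 2 and 5 and between 1.09% and 1.39% in the other chimpanzee libraries. The median deviation of the 40 genes from the species mean was 0.21 in replicate 2 and 0.66 in replicate 5 on the log2 scale, where the median over all genes was 0.01 and 0. Replicates 1 and 6 were low, with median deviations of -0.55 and -0.35, and they held the lowest 2 values in 13 genes (32.5%, against 8.18% of all genes). Replicate 1 had the fewest counts of all 12 libraries and the chromosome 19 deviation of -0.66, and it was the lowest chimpanzee library in 17 of the 40 genes (42.5%) and in 31.2% of all genes. Replicate 6, the lowest in 14 of the 40 genes (35%) and in 16.1% of all genes, had the most counts. The part of depth and of the chromosome 19 shift in these deviations was not tested. Replicates 2 and 5 are males, as is replicate 1, and replicate 6 is a female. The part of sex in these deviations was not tested.

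In rhesus macaque, replicates 5 and 6 were the high libraries, with the highest 2 values in 16 genes (40% against 18.02% of all genes) and median deviations of 0.32 and 0.38. The list took 1.52% and 1.47% of their counts, between 0.979% and 1.08% in replicates 1, 3 and 4, and 1.37% in replicate 2. Replicates 1 and 4 were low, with median deviations of -0.33 each and the lowest 2 values in 10 genes (25% against 9.75%). Replicates 5 and 6 also stood apart on chromosome 19 and replicate 1 had the fewest counts, 1801830 against 3759443 and 4600137; the part of either in these deviations was not tested. Replicate 4, which was low, had 3352686 counts, and replicate 2 had 2103199.

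**Figure D4:**
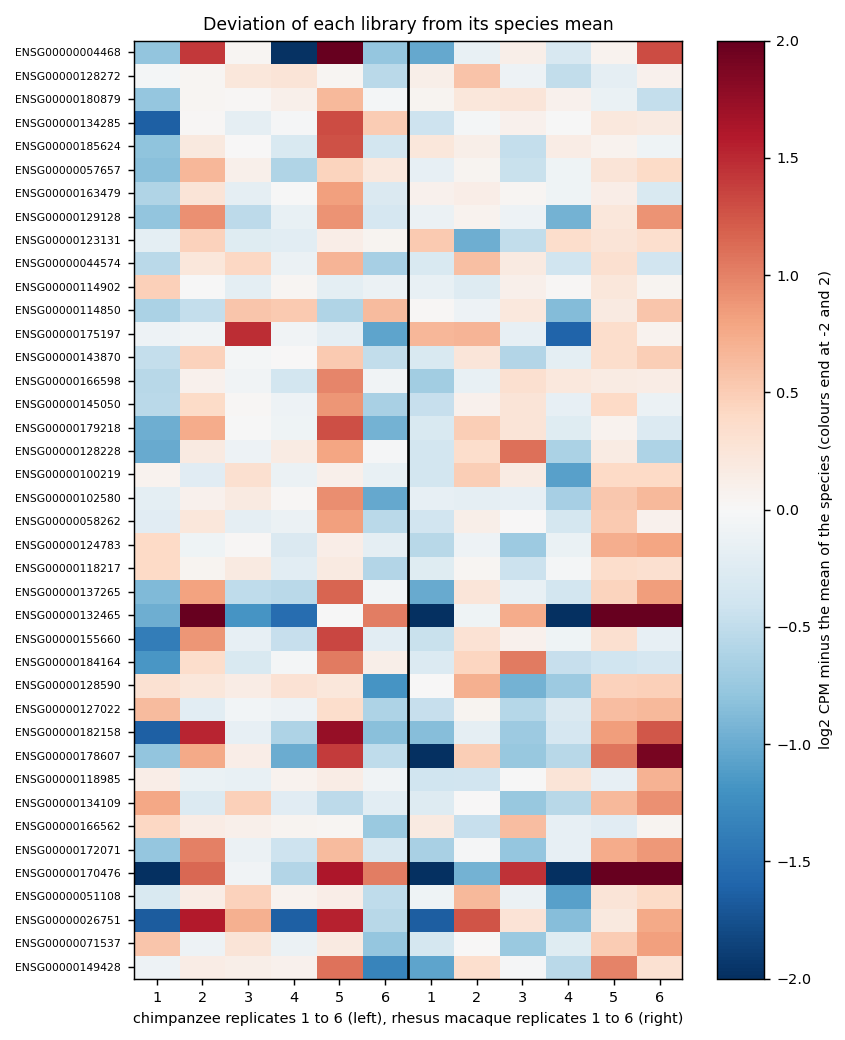
Deviation of log2 CPM from the mean of the species for the 40 tested genes (rows, ordered by species difference) in each library (columns, chimpanzee replicates 1 to 6 left and rhesus macaque replicates 1 to 6 right), red above and blue below the mean, with colours ending at -2 and 2. Chimpanzee replicate 5 is above the mean in 35 genes and replicate 1 in 10, and rhesus macaque replicate 5 is above it in 35 and replicate 4 in 6. Of all tested genes, 49.96%, 48.9%, 49.8% and 51.4% are above it in these libraries, in that order.

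The widest spread among macaques was that of ENSG00000132465 (chromosome 4 from 71740131 to 71751114), with 4 counted exons. It held 223, 2771, 193, 153, 437 and 890.2 CPM in chimpanzee replicates 1 to 6 and 18.3, 197, 354, 51.4, 992 and 1290.5 CPM in macaque replicates 1 to 6, an 18.2-fold range in chimpanzee and a 70.5-fold range in rhesus macaque. The ranges overlapped, with rhesus macaque replicates 1 and 4 below every chimpanzee library and chimpanzee replicate 2 above every macaque library. The log2 fold change was 0.68 ± 0.93 (SE, edgeR adjusted p = 0.568), and it was -0.36 without chimpanzee replicate 2, 1.24 without rhesus macaque replicate 6 and 2.50 without chimpanzee replicate 1 and rhesus macaque replicates 5 and 6 (edgeR adjusted p = 0.757, 0.310 and 0.0673).

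The widest spread among chimpanzees was that of ENSG00000170476 (chromosome 5 from 138751094 to 138753504), also with 4 exons, which held 16, 325, 138, 96.7, 447 and 299 CPM in chimpanzee and 6.1, 17.3, 93.7, 4.85, 164 and 167 CPM in macaque. Its range was 27.9-fold in chimpanzee and 34.4-fold in rhesus macaque. In rhesus macaque both genes were lowest in replicates 1 and 4 and highest in replicates 5 and 6. In chimpanzee the orders differed, with replicate 2 highest for the first and replicate 5 for the second. The species difference of ENSG00000170476 did not pass, at 1.54 ± 0.86 (SE, edgeR adjusted p = 0.154), but without chimpanzee replicate 1 and rhesus macaque replicates 5 and 6 it was 3.09 (edgeR adjusted p = 0.0140).

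Other genes with a wide spread followed the same chimpanzee libraries. ENSG00000178607, on chromosome 17 from 59474122 to 59529333, held 20.2, 60.3, 38.7, 17.3, 94.8 and 24.7 CPM in chimpanzee and 2.44, 18.8, 7.48, 8.73, 28.3 and 51 CPM in macaque. ENSG00000182158, on chromosome 7 from 137236640 to 137337386, held 14, 130.01, 39.8, 28.9, 151 and 24.9 CPM in chimpanzee and 15.9, 25.7, 17.4, 23, 52.8 and 70.1 CPM in macaque. In both genes chimpanzee replicates 2 and 5 and rhesus macaque replicates 5 and 6 held the highest 2 values of their species. With all libraries the species difference passed in neither, at 1.10 ± 0.61 (SE, edgeR adjusted p = 0.148) and 0.91 ± 0.58 (SE, edgeR adjusted p = 0.213) for the log2 fold change. ENSG00000137265, on chromosome 6 from 338098 to 350130, shared that order, with 223, 719.8, 290.1, 282, 921 and 398 CPM in chimpanzee and 137, 325, 248, 213, 377 and 493 CPM in macaque and a log2 fold change of 0.66 ± 0.38 (SE, edgeR adjusted p = 0.169).

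**Figure D5:**
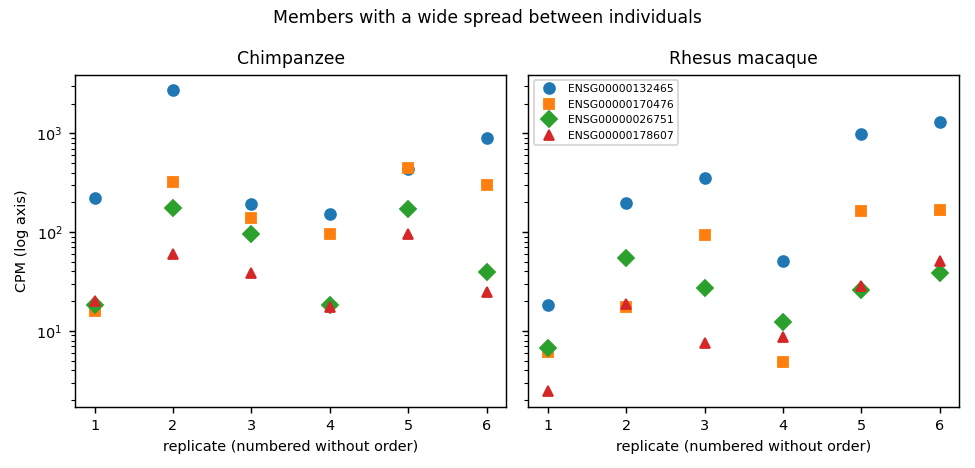
CPM on a logarithmic axis of 4 genes with a wide spread between individuals, by library in chimpanzee (left) and rhesus macaque (right); replicate numbers carry no order. The chimpanzee values of ENSG00000132465 run from 153 to 2771 CPM and its macaque values from 18.3 to 1290.5 CPM, and in 3 of the 4 genes rhesus macaque replicates 1 and 4 hold the lowest 2 values.

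A few genes of the list were steadier between individuals. ENSG00000100219, on chromosome 22 from 27520545 to 27526560, held 425, 347, 506, 373, 434 and 364 CPM in chimpanzee and 239, 438, 346, 146, 410.02 and 408 CPM in macaque, with rhesus macaque replicate 4 the lowest library. It was steady in chimpanzee only, at a log2 SD of 0.20 there and 0.62 among macaques, and its log2 fold change was 0.30 ± 0.24 (SE, edgeR adjusted p = 0.323). ENSG00000114902, on chromosome 3 from 52715700 to 52717249, varied little in both species, with 193, 138, 121, 142, 121 and 127 CPM in chimpanzee and 145, 135, 173, 165, 189 and 168 CPM in macaque replicates 1 to 6.

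Single exons were then compared within each gene, relative to that gene's own level. Of the 37 listed genes with at least 2 tested exons, 1 was called (edgeR diffSpliceDGE, Simes method, adjusted p under 0.05), and of all 9970 genes 4.27% were. This was ENSG00000100219 (edgeR Simes adjusted p = 0.00211), through its exon numbered 4, which is 174 bases long and lies on chromosome 22 from 27525948 to 27526121. The exon took 0%, 0.71%, 0.148%, 0.207%, 0.372% and 0.431% of the gene's counts in chimpanzee replicates 1 to 6 and 1.79%, 2.48%, 1.44%, 1.11%, 1.61% and 1.70% in rhesus macaque replicates 1 to 6. The groups did not overlap, and the mean share was 0.311% ± 0.250 among chimpanzees and 1.69% ± 0.456 among macaques (SD over 6 libraries each, edgeR exon adjusted p = 0.00232). Behind these shares stand 22 counts in chimpanzee and 101 in rhesus macaque. A species difference in the use of this exon cannot be told apart from one in how well reads map to it. The call held without each single library (edgeR Simes adjusted p from 0.000923 to 0.0179). The exon is a small part of a gene whose exon numbered 1, 1176 bases long, accounted for 76.0% of the gene's counts among chimpanzees and 70.6% among macaques. Of the 285 single exons of listed genes that were tested, this was the only 1 called, against 0.852% of all tested exons.

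Sex, as labelled, was tested inside each species. None of the 40 genes passed in chimpanzee (3 against 3) or rhesus macaque (2 against 4), and none passed the test of a sex effect differing between the species (edgeR quasi-likelihood test, 0 of 9440 genes called in each comparison, 0%). DESeq2's Wald test called 0 of the listed genes in each of the 3 comparisons. In simulated counts the chimpanzee sex fit recovered 6.06% of 2-fold and 52.3% of 4-fold changes. The lack of calls therefore does not show that the sexes are alike in these genes. At an unadjusted p under 0.05, edgeR gave 3 of the 40 genes among chimpanzees, 0 among macaques and 1 for the interaction, against 6.93%, 2.18% and 5.07% of all genes. The lowest of these was for ENSG00000114850, which lies on chromosome 3 from 157755440 to 157755629 with a single counted exon. Its values were 36, 35.4 and 38.3 CPM in the female chimpanzees and 15.3, 17.2 and 15.7 CPM in the males, a log2 fold change of 1.18 of females over males (edgeR unadjusted p = 0.00450, adjusted p = 0.524). In rhesus macaque the female libraries held 14.5 and 30.9 CPM and the male libraries 27.5, 25.2, 31.4 and 40.2 CPM, which overlap.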

How the data were processed

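The authors deposited raw counts per exon as whole numbers, 1 file per library. Per the file rows, an exon is named by identifier, number, chromosome, start and end, and exons without a count are not listed and were taken as 0. For aligner, counting tool and genome build, nothing is given in the sources used here, and coordinates are printed as in the files. The labels' protocols name no strand-marking step. Exon counts were summed per gene and tested with edgeR 4.0.16 (limma 3.58.1, R 4.3.3), using TMM scaling, a quasi-likelihood test with robust estimates and species as the only term. The default filter was used (minimum count 10, minimum total 15, at least 6 libraries). Adjustment ran over all genes by the Benjamini-Hochberg method, with calls at 0.05. CPM and RPKM were computed from these counts, with a prior count of 2 for log2 values. glmTreat tested a log2 difference beyond 1, and diffSpliceDGE used exons with at least 10 counts. Simulated counts with known changes served to test the species fit, the chimpanzee sex fit and the exon usage fit. Of simulated 2-fold changes, these recovered 25.8%, 6.06% and 0%. Of 4-fold changes they recovered 81.25%, 52.3% and 76.9%. The simulated species fit changed few genes, 66 of 9337 by 2-fold, whereas 48.2% of all genes were called in the data. Its shares therefore do not measure what the species test recovers in these data. The simulated exons were well counted, varied within their gene only by counting noise and changed only upwards in chimpanzee. The exon called here had fewer counts and was lower in chimpanzee, so the exon usage shares do not cover it. The glmTreat test, the macaque sex test and the test of a differing sex effect were not simulated. The labels name 1 line per individual and no repeat cultures, so p-values measure the spread between these lines.

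The listed genes and all other lists were chosen with earlier results of these data known. Role, pathway and marker lists fixed by symbol were not run, because 0 of 16903 identifiers matched the reference tables. By the rule for named genes, library values are given for the 3 largest called differences in each direction, the gene called for exon usage and the 3 genes with the largest SD. The other called genes and the steady and variable examples were added after their values were seen. Alternatives were DESeq2 1.42.0, other scalings, filters and exon sets, sex as a term, males only and leaving out libraries.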

Additional observations from a re-analysis of the deposited data

Results flagged for a closer look

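In 80 groups of 6 libraries (40 genes in each species), log2 CPM was examined for a single library whose gap to its nearest neighbour exceeded Dixon's 95% critical value for the gap as a share of the whole range. In all, 5 groups had 1 such library, 6.25% of the groups, and chance gives about 1 in 20 for independent, normally distributed groups. These groups are not independent, since the 40 genes share the same libraries. The rate over all tested genes was not counted, so the 5 cannot be read as a trait of the listed genes. Chimpanzee replicate 6 was the low library in 3 of them, with 20.4 CPM for ENSG00000128590, where the other chimpanzee libraries lay between 52.2 and 57.9 CPM, 64 CPM for ENSG00000166562 and 178 CPM for ENSG00000128272. Rhesus macaque replicate 4 was low for ENSG00000175197, at 31 CPM, and chimpanzee replicate 1 was high for ENSG00000114902, at 193 CPM. No listed gene passed the test of a sex effect differing between the species.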

How the results depend on the processing

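The counts of 10 higher and 5 lower genes were the same with DESeq2, with RLE size factors, with sex as a term and on the exons that 3 or more libraries per species contain. Of all genes, 51.0%, 48.0%, 46.8% and 46.5% were called in these fits. Each single library left out gave 7 to 11 higher and 4 to 6 lower genes, and 3 to 7 beyond 2-fold, with 7 without chimpanzee replicate 5. The share of all genes called in these fits, without regard to size, was 43.6% to 49.5%, and the share beyond 2-fold was not counted. With males only, 8 were higher and 2 lower, and 28.7% of all genes were called. The calls of ENSG00000004468, ENSG00000026751, ENSG00000118217, ENSG00000134285 and ENSG00000185624 were lost in this smaller fit, at log2 fold changes of -1.55, 1.94, 0.87, -1.17 and -0.43 against -2.13, 1.65, 0.59, -1.33 and -0.79 with all libraries. Without the expression filter the call of ENSG00000026751 was lost at 1.64. Without TMM, which moved the median of all genes from 0.04 to 0.13, that of ENSG00000185624 was lost at -0.70. Without chimpanzee replicate 1 and rhesus macaque replicates 5 and 6, 14 were higher, 3 lower and 7 beyond 2-fold. Of all genes, 49.2% were called there without regard to size, and the share beyond 2-fold was not counted. Without chimpanzee replicates 2 and 5, 7 were higher and 8 lower, with 47.7% of all genes called. Both of these sets of libraries were chosen after seeing the data. At a threshold of 1.5-fold, 11 listed genes passed in place of 4. The share over all genes at that threshold was not counted, so the 11 cannot be set against a background. The exon usage count was 3 with the gene-level F test (16.8% of all genes) and 1 to 2 when a library was left out, the second being ENSG00000058262 without rhesus macaque replicate 6. The median SD ran from 0.49 to 0.64 in chimpanzee and from 0.42 to 0.56 in rhesus macaque when a library was left out. With all libraries the median over all genes was 0.48 and 0.45, and it was not computed with a library left out.

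Over 18 named genes and their alternatives, 344 of 395 fold changes kept sign and call, 46 lost the call, 1 gained it and 4 changed sign. The 4 are ENSG00000132465, at -0.16 without the strongest exon, -0.36 without chimpanzee replicate 2 and -0.42 without chimpanzee replicates 2 and 5, and ENSG00000100219, at -0.051 without the strongest exon. None of these 4 values passed, and with 1 library left out ENSG00000132465 ran from -0.36 to 1.24, and it was 2.50 (edgeR adjusted p = 0.0673) without chimpanzee replicate 1 and rhesus macaque replicates 5 and 6; the cause was not tested. Without the strongest exon, 37 of the 40 genes could be tested. Pathway lists were not run. No paired analysis was possible because the labels give no replicate numbers shared between the species. Depth limits the genes near the filter, such as ENSG00000115884 with 5 counts in each species, and intervals were not given for them.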
